A study of Mus musculus with 5 samples.

Results

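The 10 genes described here make, break down and control the polyamines putrescine, spermidine and spermine: Odc1, Amd1, Srm, Sms, Sat1, Paox, Aoc1, Oaz1, Oaz2 and Azin1. They were chosen by name, and all 10 were found by symbol among the 51912 genes listed for each library. RNA was sequenced from tissue labelled dorsolateral prostate, the dorsal and lateral prostate lobes, of male mice aged 7 months. The 3 Ghr deletion mice carried floxed Ghr alleles (Ghrflox/flox), an SV40 C3(1) T-antigen+/0 transgene and ROSA26Cre-ERT2+/0, and the 2 tamoxifen control mice carried Ghrflox/flox and SV40 C3(1) T-antigen+/0. Every mouse therefore had the T antigen, an oncogene driven here from the C3(1) promoter, and every mouse received tamoxifen at 250 mg/kg daily for 5 days, with tissue taken 1 month after the last dose. ROSA26 is active in most cell types, so the Cre is not confined to the prostate, and the controls' labels list no Cre, so the presence of Cre and the deletion cannot be told apart. The comparison asks how loss of the growth hormone receptor bears on transcripts in this tumour model. The series calls the libraries biological replicates.

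Polyamines are small positively charged molecules that bind RNA and DNA and are needed for cell growth, and the rodent prostate is known for a high polyamine content. Ornithine decarboxylase (Odc1) makes putrescine, spermidine synthase (Srm) and spermine synthase (Sms) extend it with aminopropyl groups supplied through S-adenosylmethionine decarboxylase (Amd1), and acetylation by Sat1 opens the way back through the oxidase Paox. Antizymes (Oaz1, Oaz2) bind ornithine decarboxylase and send it to the proteasome, and Azin1, an inactive relative of that enzyme, binds antizyme and so protects it.

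Antizyme mRNAs carry the best known regulatory sequence of this pathway, a site at which ribosomes shift reading frame when polyamines are abundant, and it is printed because the antizyme genes are compared below. Both stretches were read from GENCODE release M21 transcripts of GRCm38, the build of every position given here, 5′ to 3′. The capitals mark the 7 bases that hold the last sense codon of the first frame, its stop codon and the base after it.
Oaz1: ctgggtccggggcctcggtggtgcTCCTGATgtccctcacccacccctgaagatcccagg
Oaz2: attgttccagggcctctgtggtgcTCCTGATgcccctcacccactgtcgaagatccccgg
The Oaz1 stretch lies in an exon at chr10:80828268-80828327 and the Oaz2 stretch in an exon at chr9:65686245-65686304, both on the plus strand, and 49 of their 60 bases are identical. The deposited values are sums over each gene, so use of the site was not measured.

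Total counts were 28536636, 37910327 and 33414067 in deletion replicates 1, 2 and 3, and 47656212 and 13812454 in control replicates 1 and 2. Libraries differed in tissue content within both groups. The 9 seminal vesicle genes took 27.4%, 28.7% and 1.43% of counts in the deletion libraries and 35.6% and 2.78% in the controls (95% Wilson intervals within 0.0164 percentage points). Of the 9, 6 were lower in CPM in every deletion library than in both controls, which held for 10.2% of all genes. Svs1, 1 of these 6, had 177, 2 and 519 counts in the deletion libraries and 1828687 and 3527 in the controls. In deletion replicates 1 and 2 the share was mainly Svs2, Svs5 and Pate4, so similar shares held different genes. The prostate marker Pbsn had 4, 8 and 3 counts in the deletion libraries and 411 and 1 in the controls. This marker of the labelled tissue was thus nearly absent from 4 of the 5 libraries, and it came to only 17.6 CPM in control replicate 1. The vas deferens and epididymis list summed to 5144, 4356 and 34.2 CPM (read counts relative to the scaled depth of the library) in the deletion libraries and 6.20 and 1601 CPM in the controls. Nearly all of these sums came from Akr1b7 and Crisp1, and Lcn5, Adam7 and Rnase10 had at most 6 counts in any library. Counts of Upk3a, a bladder lining gene, came to 0, 0 and 1046 across the deletion libraries and to 0 in both controls. Upk1b, of the same urothelium list, was present in every library, at 45.9, 67.1 and 97.7 CPM in the deletion libraries and 77.2 and 23.8 CPM in the controls. The targeted gene, Ghr (ENSMUSG00000055737, chr15:3317760-3583492, minus strand), had 8.12, 20.9 and 12.1 CPM in the deletion libraries and 14.4 and 31.2 CPM in the controls. Its log2 fold change was -0.73 (SE 0.515) in edgeR's quasi-likelihood test (adjusted p = 0.995). This difference rested on control replicate 2: it was -0.07 without that library and -1.19 without control replicate 1. The labels name no deleted exon, so a count over the whole gene is a weak check of the deletion.

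None of the 10 polyamine genes passed the edgeR quasi-likelihood test over all 18615 genes tested (Benjamini-Hochberg adjusted p of 0.991 to 0.999), where 0.0% of all genes passed. At an unadjusted p under 0.05 edgeR gave 0 of the 10, against 4.92% of all genes. DESeq2 passed 0 of the 10 after adjustment, against 0.968% of all genes with an adjusted p, and limma-voom passed 0, against 0.0% of all genes. At an unadjusted p under 0.05, DESeq2 gave 0 of the 10, against 6.91% of all genes, and limma-voom gave 1, Azin1, against 3.98%. By the CPM of single libraries, Sms was higher in every deletion library than in both controls, which held for 9.46% of all genes, and Azin1 was lower in every one, which held for 10.2%. The groups of the other 8 overlapped. Both separations held with TMM, RLE and upper quartile factors, and the groups overlapped with library sizes alone and in TPM. The median log2 fold change was -0.048 over the 10 genes and 0.0045 over all genes tested, with 4 of the 10 above 0 and 6 below. Signs of small differences depended on the scaling: Amd1, Paox and Oaz1 were above 0 with library sizes alone, and all 10 genes were above 0 on log2(TPM + 1), where the median of all genes was 0.54. In bulk tissue, fewer cells of a type and less RNA per cell cannot be told apart.

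**Figure D1:**
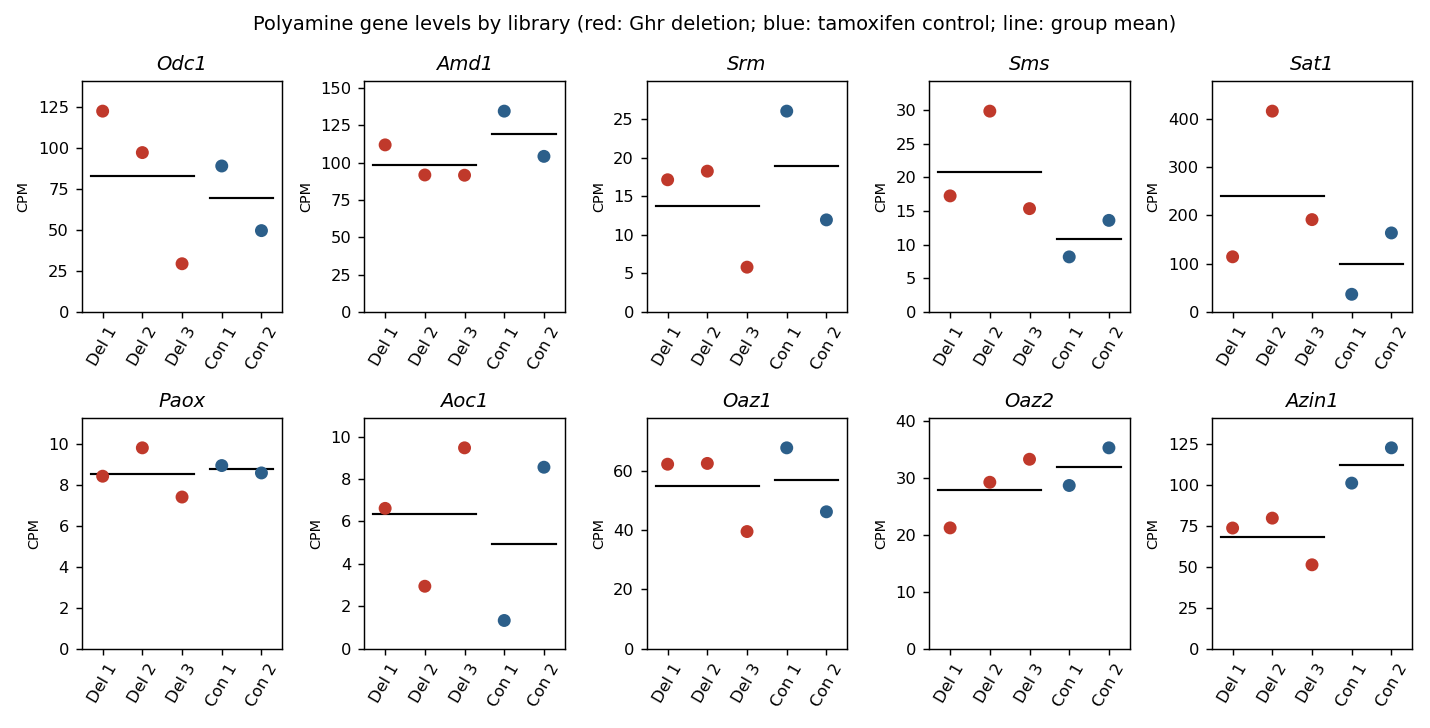
CPM of each polyamine gene in every library, on linear axes from 0. Red points are the 3 Ghr deletion libraries (Del), blue points the 2 tamoxifen controls (Con), and black lines the group means. Sms is higher and Azin1 lower in all 3 deletion libraries than in both controls, and the points of the other 8 genes overlap between groups.

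Odc1 (ENSMUSG00000011179, chr12:17544794-17551505, plus strand) encodes the enzyme of the first committed step of synthesis. It had 122.2, 97.003 and 29.3 CPM in deletion replicates 1, 2 and 3, and 88.8 and 49.5 CPM in control replicates 1 and 2. The deletion libraries held both the highest and the lowest value, and both controls lay between them. Its log2 fold change of 0.26 (SE 0.605) had a 95% interval of -1.19 to 1.71. Leaving out deletion replicate 1 gave -0.11, and leaving out control replicate 2 gave -0.10. In the authors' TPM, a unit that divides by gene length and by the library's whole transcript pool, Odc1 had 37.8, 36.1 and 30.8 in the deletion libraries and 8.55 and 27.6 in the controls, and there every deletion library was above both controls, which held for 4.99% of all genes. Both libraries lowest in Odc1 by CPM, deletion replicate 3 and control replicate 2, were those in which seminal vesicle genes took 1.43% and 2.78% of counts. The part of tissue content in the Odc1 level was not tested.

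Amd1 (ENSMUSG00000075232, chr10:40287458-40302186, minus strand) encodes the decarboxylase that supplies aminopropyl groups. It was among the steadier members, at 112, 91.7 and 91.5 CPM in the deletion libraries and 134 and 104 CPM in the controls, with a log2 fold change of -0.28 (SE 0.275). Deletion replicate 1 lay above control replicate 2, so the groups overlapped. The mouse has a near-identical copy, Amd2: 86.1% of the 50-base words of the Amd1 transcript of 3204 bases also occur in the Amd2 transcript. Amd2 was assigned 35.4, 12.3 and 27.6 counts in the deletion libraries and 7.30 and 13.5 in the controls, while Amd1 had 3194, 2930 and 4935 counts in the deletion libraries and 3146 and 2154 in the controls. Reads of these copies, and of processed pseudogenes of Amd1, Oaz1 and Sms, cannot be told apart with certainty.

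Srm (ENSMUSG00000006442, chr4:148591503-148594993, plus strand), spermidine synthase, had 17.2, 18.3 and 5.80 CPM in the deletion libraries and 26.1 and 11.9 CPM in the controls. Deletion replicate 3 was the lowest of all libraries and control replicate 1 the highest. A log2 fold change of -0.47 (SE 0.582) had a 95% interval of -1.86 to 0.92, and was 0.20 without control replicate 1.

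Sms (ENSMUSG00000071708, chrX:157443855-157492287, minus strand), spermine synthase, had 17.2, 29.8 and 15.3 CPM in the deletion libraries and 8.16 and 13.6 CPM in the controls. Every deletion library was above both controls, although deletion replicate 3 exceeded control replicate 2 by little. The group means were 20.8 ± 7.87 CPM (SD, n = 3) in the deletion libraries and 10.9 ± 3.84 CPM (SD, n = 2) in the controls. Fitted at 0.93 on the log2 scale (SE 0.438, 95% interval -0.11 to 1.98), the difference did not pass edgeR's test (adjusted p = 0.991). Exact permutation of the library labels (two-sided, on log2(CPM + 0.5)) returned p = 0.2, and no arrangement of 3 and 2 libraries can go under 0.1. The fold change was 0.58 without deletion replicate 2 and 0.61 without control replicate 1.

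RSEM, the program behind the deposited values, also gives each gene a length weighted over its transcripts, and for Sms this was 2748, 2463 and 2889 bases in the deletion libraries and 2244 and 2309 bases in the controls. All deletion libraries thus had the longer mixture, which 8.7% of all tested genes with more than 1 transcript also showed. Aoc1 had the reverse order, at 2017, 1990 and 2128 bases against 2361 and 2199 bases in the controls, and the lengths of the other 8 members overlapped. Groups of such lengths did not overlap, in either direction, for 19.3% of all such genes, so 2 of 10 is near the background.

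Per unit of length the order of the members could be read within each library. Each gene's TPM was taken as a percent of the summed TPM of the 10, which needs no scaling between libraries. Sat1 had the highest mean share, at 30.3%, 61.8% and 53.5% in the deletion libraries and 11.2% and 43.8% in the controls, and it was first in 4 of 5 libraries. Oaz1 came next at 24.4%, 14.1% and 17.6% in the deletion libraries and 34.3% and 17.7% in the controls. Odc1, Amd1 and Azin1 followed with mean shares of 10.7%, 9.36% and 6.38% over the 5 libraries. Odc1 was above Amd1 in only 3 of the 5 libraries, so that order did not hold in every one. Oaz2 and Srm had mean shares of 4.92% and 3.76%, again with 3 of 5 libraries in that order, while Sms, with 1.60%, was eighth in all 5. Paox and Aoc1 were last, at 0.76% each. Azin1 was the 1 member of 10 whose share did not overlap between groups. It was lower in the deletion libraries, at 5.54%, 3.45% and 4.53% against 8.92% and 9.46% in the controls (two-sided exact permutation test, p = 0.1, the smallest value possible here). By CPM, groups did not overlap in either direction for 19.7% of all genes, and no such background was taken for shares.

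**Figure D2:**
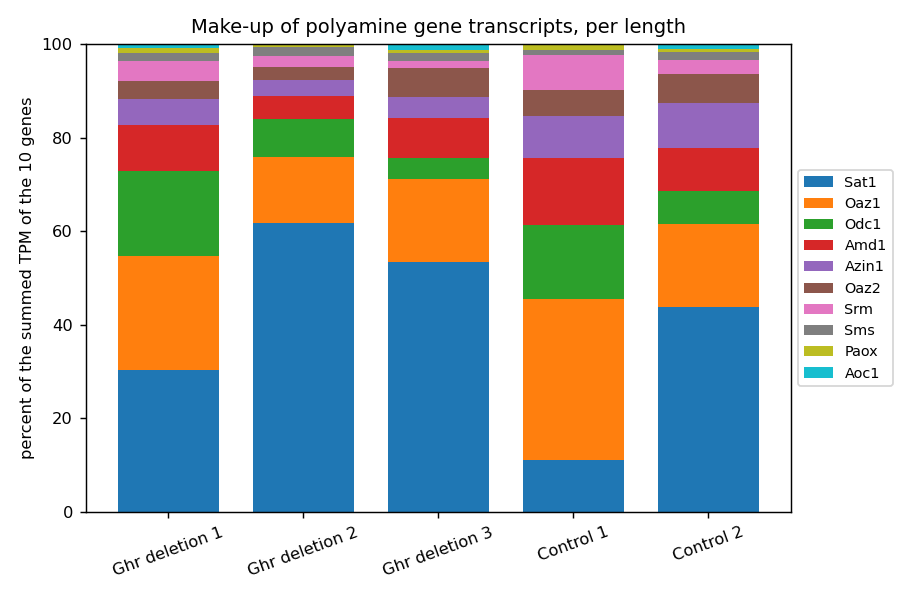
Share of each polyamine gene in the summed TPM of the 10 genes (percent, stacked to 100), with the 3 Ghr deletion libraries on the left and the 2 controls on the right. Sat1 takes 30.3%, 61.8% and 53.5% in the deletion libraries and 11.2% and 43.8% in the controls.

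Sat1 (ENSMUSG00000025283, chrX:155213132-155216449, minus strand), the acetyltransferase that starts polyamine breakdown and export, varied most among the members, with an 11.4-fold span in CPM between its highest and lowest library. It had 114, 416 and 191 CPM in deletion replicates 1, 2 and 3, and 36.4 and 164 CPM in control replicates 1 and 2. Of the 5 libraries, control replicate 1 was lowest, and control replicate 2 lay between deletion replicates 1 and 3. Means were 240 ± 157 CPM (SD, n = 3) in the deletion libraries and 99.96 ± 89.9 CPM (SD, n = 2) in the controls. This gave 1.27 on the log2 scale (SE 0.782) with a 95% interval of -0.60 to 3.14, and edgeR's adjusted p was 0.995. Leaving out control replicate 2 gave 2.72, while dropping control replicate 1 gave 0.56 and dropping deletion replicate 2 gave 0.61. Control replicate 1 also had the highest seminal vesicle share (35.6%) and the lowest vas deferens and epididymis sum (6.20 CPM). The other libraries did not follow either order. Deletion replicate 2, highest in Sat1, had a seminal vesicle share of 28.7%, and deletion replicate 3, second highest, had a sum of 34.2 CPM. The part of either in the Sat1 level was not tested.

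Paox (ENSMUSG00000025464, chr7:140115799-140137224, plus strand), the oxidase that acts on acetylated polyamines, was nearly level at 8.44, 9.83 and 7.42 CPM in the deletion libraries and 8.96 and 8.60 CPM in the controls. The log2 fold change was -0.04, and the 95% interval of -0.87 to 0.80 leaves room for a difference in either direction. Paox overlaps Echs1 on the opposite strand, and the strand setting of the counting is not given in the sources used here. Aoc1 (ENSMUSG00000029811, chr6:48872896-48909188, plus strand), a secreted diamine oxidase that degrades putrescine and histamine, had the lowest counts of the 10 in 4 of the 5 libraries, at 189, 94 and 511 in the deletion libraries and 31 and 177 in the controls. This was 6.62, 2.94 and 9.48 CPM in the deletion libraries and 1.33 and 8.56 CPM in the controls. The groups overlapped, and the log2 fold change of 0.36 (SE 0.845) became 2.25 when control replicate 2 was left out and -0.43 when control replicate 1 was.

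Within the antizyme system, Oaz1 (ENSMUSG00000035242, chr10:80826656-80829290, plus strand) had 62.3, 62.5 and 39.5 CPM in the deletion libraries and 67.8 and 46.2 CPM in the controls, a log2 fold change of -0.06 (SE 0.335). Oaz2 (ENSMUSG00000040652, chr9:65668001-65690300, plus strand), the less abundant antizyme, had 21.3, 29.3 and 33.3 CPM in the deletion libraries and 28.7 and 35.4 CPM in the controls, a log2 fold change of -0.20 (SE 0.309). For both genes the ranges of the groups overlapped. The order of libraries differed between them: deletion replicate 3 was the lowest of the 5 in Oaz1 and the second highest in Oaz2.

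Azin1 (ENSMUSG00000037458, chr15:38487427-38519266, minus strand), the antizyme inhibitor, had 73.7, 79.8 and 51.2 CPM in the deletion libraries and 101 and 123 CPM in the controls. All deletion libraries lay below both controls. The means were 68.2 ± 15.04 CPM (SD, n = 3) in the deletion libraries and 112 ± 15.3 CPM (SD, n = 2) in the controls. On the log2 scale the difference was -0.71 (SE 0.301), with a 95% interval of -1.43 to 0.0047, and did not pass edgeR's test (adjusted p = 0.991), while limma-voom gave an unadjusted p of 0.0483. A two-sided exact permutation test gave p = 0.1, the smallest value possible here. The fold change lay between -0.85 and -0.56 when any 1 library was left out. Leaving out deletion replicate 3 and control replicate 1 together gave -0.68. On the log2(TPM + 1) scale it was 0.34, where the median over all genes was 0.54, so that Azin1 was below that median there too. An annotated antisense gene overlaps Azin1. Some marker genes were, like Azin1, lower in every deletion library than in both controls, which held for 10.2% of all genes. These included all 8 mitosis genes, with summed levels of 6.72, 10.8 and 5.12 CPM against 233 and 44.3 CPM. Also among them were 4 of 5 macrophage genes, with sums of 36.8, 30.7 and 39.5 CPM against 52.9 and 86.3 CPM. Others were 6 of 9 seminal vesicle genes (Svs1, Svs3a, Svs3b, Svs4, Svs6 and Spinkl), 3 of 8 prostate genes and 2 of 4 basal epithelium genes. The remaining genes of these lists overlapped between groups. Of 4 luminal epithelium genes 0 were lower and 1, Krt18, was higher in every deletion library. The vas deferens and epididymis, urothelium, smooth muscle and skeletal muscle lists had 0 genes lower and 0 higher. No mitosis, macrophage, seminal vesicle or basal marker was at 0 in any library, and 1 or 2 prostate markers were at 0 in every library but control replicate 1. Their part in the Azin1 and Sms differences was not tested.

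**Figure D3:**
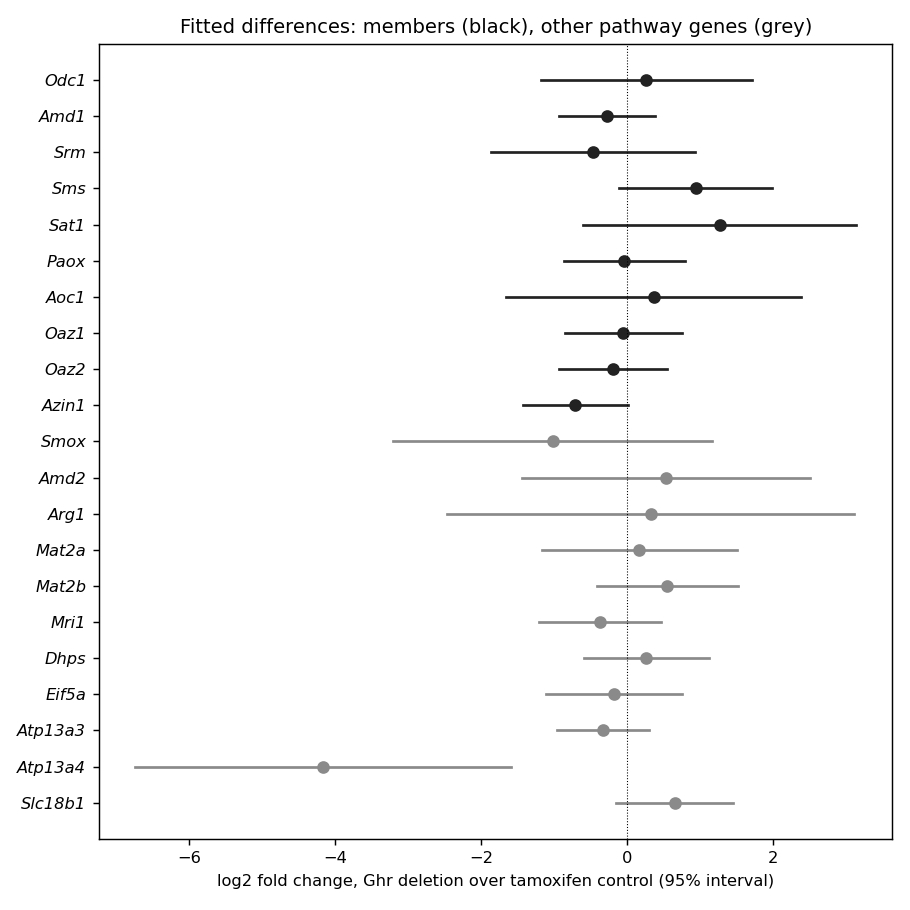
Fitted log2 fold changes, Ghr deletion over tamoxifen control, with 95% intervals from edgeR, for the 10 members (black) and 11 other pathway genes (grey). The interval of every member includes 0, and that of Atp13a4, at -4.17, does not.

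Ratios between members within a library need no scaling between libraries, and 12 were compared. Groups did not overlap for 3 of the 12, and the CPM of single genes did not overlap in either direction for 19.7% of all genes. No such background was taken for ratios, and the 12 share genes. Azin1 and Sms, whose CPM separated, are also the first genes of Azin1 to Oaz1 and Sms to Amd1, so these are not independent results. Azin1 to Oaz1, inhibitor to antizyme, was 1.18, 1.28 and 1.296 in the deletion libraries and 1.49 and 2.66 in the controls, and the difference of the mean log2 ratios was -0.67. It was -0.25 when control replicate 2 was left out and -1.09 when control replicate 1 was. The deletion libraries were close to each other, and the controls differed more from each other than any deletion library did from control replicate 1. Sms to Amd1 was 0.154, 0.325 and 0.168 in the deletion libraries and 0.0609 and 0.131 in the controls, a difference of 1.19 on the log2 scale, and of 0.64 without control replicate 1. This separation was lost in ratios of TPM, with 0.176, 0.391 and 0.180 in the deletion libraries and 0.0828 and 0.180 in the controls. Srm to Odc1 was 0.140, 0.189 and 0.198 in the deletion libraries and 0.294 and 0.242 in the controls, a difference of -0.62.

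These 3 ratios each gave p = 0.1 in a two-sided exact permutation test, the floor for 3 and 2 libraries, and 0.4 after Benjamini-Hochberg adjustment over the 12. The 12 pairs were chosen with earlier results of these data known, so these p-values are descriptive. The other 9 overlapped between groups. Odc1 to Oaz1, enzyme to antizyme, was 1.96, 1.55 and 0.741 in the deletion libraries and 1.31 and 1.07 in the controls. Sat1 to Odc1, breakdown to synthesis, spread widest, at 0.933, 4.29 and 6.52 in the deletion libraries and 0.410 and 3.30 in the controls. That spread within each group was wider than the distance between the group means, and the log2 difference of 1.35 was -0.16 without control replicate 1.

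**Figure D4:**
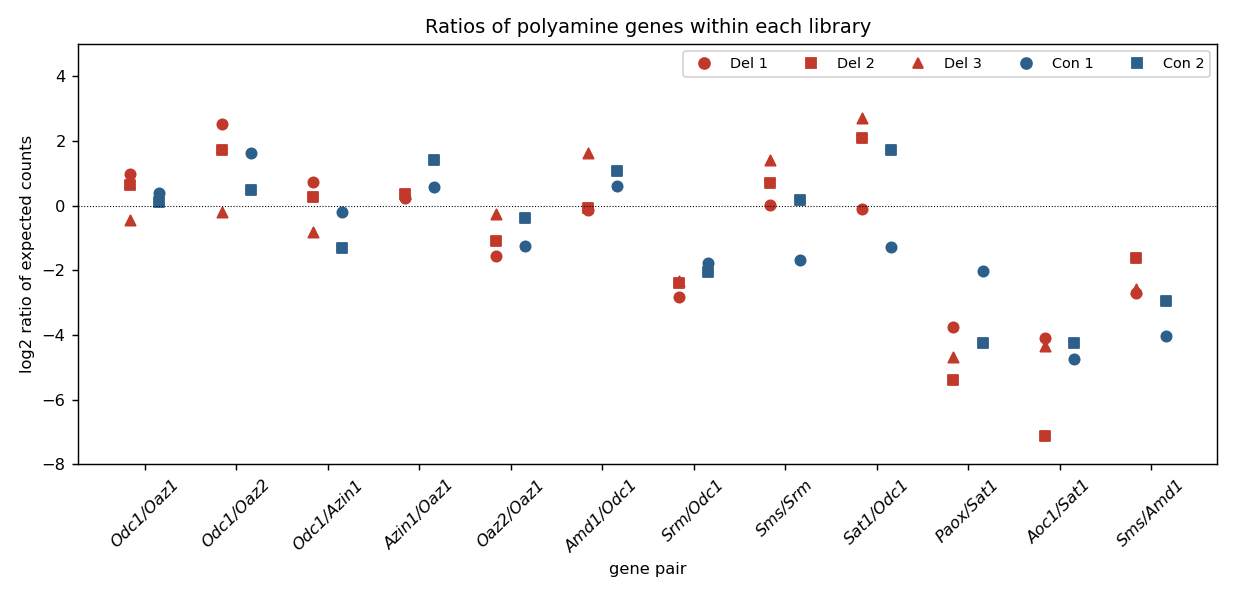
Log2 ratios of expected counts for 12 pairs of polyamine genes within each library, with deletion libraries (red) left of controls (blue) and marker shapes for replicates. Red and blue points separate for Azin1/Oaz1, Srm/Odc1 and Sms/Amd1 and overlap for the other 9 pairs. In ratios of TPM, not drawn, the groups of Sms/Amd1 overlap.

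A wider list of 40 genes covered substrate supply, the methionine cycle, the hypusine branch, transport, and copies of the members. Of these 35 passed the filter on low counts, and Satl1, Agmat, Otc, Mat1a and Slc22a2 did not. After adjustment over all genes edgeR passed 0 of the 35, limma-voom 0 and DESeq2 1, against 0.0%, 0.0% and 0.968% of all genes. At an unadjusted p under 0.05 edgeR had 1 of the 35, limma-voom 0 and DESeq2 5, against 4.92%, 3.98% and 6.91% of all genes. Of these 5 in DESeq2, 4 were among the 10 transport genes tested, beside 6.91% of all genes, and 1 of the 4 passed after adjustment. The 4 did not share a direction: by edgeR fold change Atp13a2 and Atp13a4 were lower, and Slc22a3 and Slc47a1 higher. In edgeR's test the unadjusted p was 0.0643 for Atp13a2, 0.0871 for Slc22a3 and 0.129 for Slc47a1. The median log2 fold change of the 35 was 0.071, with 20 above 0 and 15 below. All deletion libraries were above both controls for 3 of the 35 and below both for 3. Non-overlapping groups in either direction were found for 19.7% of all genes, so 6 of 35 is near that background.

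The gene DESeq2 passed was Atp13a4, a P5-type transport ATPase related to the lysosomal polyamine exporter Atp13a2. It had 1.23, 1.06 and 1.74 CPM in the deletion libraries and 46.3 and 2.42 CPM in the controls. The high value came from control replicate 1 alone. The log2 fold change was -4.17 (SE 1.07; edgeR quasi-likelihood test, adjusted p = 0.985; DESeq2 adjusted p = 0.00575), and without control replicate 1 edgeR gave -0.84 (adjusted p = 1.00). Prostate marker genes summed to 2.98, 2.36 and 1.73 CPM in the deletion libraries and to 4459 and 13.1 CPM in the controls. Most of both control sums was a single gene, Spink1, at 4387 and 11.2 CPM. The other genes of that list were far lower, such as Pbsn at 17.6 and 0.0484 CPM in the controls. Each was highest in control replicate 1, so the same library stood out, and the part of tissue content was not tested.

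Among the transporters, Atp13a3, a polyamine transporter, had 147, 165 and 155 CPM in the deletion libraries and 209 and 182 CPM in the controls, all deletion libraries lower. Slc18b1, a vesicular polyamine transporter, had 12.9, 10.7 and 13.4 CPM in the deletion libraries and 7.82 and 7.93 CPM in the controls, all deletion libraries higher (log2 fold change 0.65, SE 0.334). Neither passed edgeR's test (adjusted p = 0.995 for both).

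Polyamines also feed the hypusine modification of the translation factor Eif5a. Dhps, deoxyhypusine synthase, had 7.84, 8.23 and 7.22 CPM in the deletion libraries and 6.41 and 6.53 CPM in the controls, which do not overlap but differ by a log2 fold change of 0.26. Eif5a itself had 135, 172.3 and 82.8 CPM in the deletion libraries and 177 and 119 CPM in the controls, with overlap.

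In the methionine cycle, Mat2b, a regulatory subunit of S-adenosylmethionine synthetase, had 62.5, 127 and 60.4 CPM in the deletion libraries and 59.0 and 55.2 CPM in the controls. The distance between groups rests on deletion replicate 2, since the other deletion libraries lay just above the controls. Mri1, an enzyme of methionine salvage, had 8.02, 8.11 and 7.97 CPM in the deletion libraries and 12.1 and 8.76 CPM in the controls. Mat2a, the catalytic subunit of S-adenosylmethionine synthetase, had 103, 48.3 and 163 CPM in the deletion libraries and 61.2 and 126 CPM in the controls, with overlap.

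Smox, the oxidase that turns spermine straight into spermidine, had 11.7, 7.10 and 1.93 CPM in the deletion libraries and 24.02 and 3.92 CPM in the controls, a log2 fold change of -1.02 (SE 0.915). Deletion replicate 3 and control replicate 2 were its lowest libraries, as they were for Odc1, Srm and Oaz1. Amd2 stayed at or under 1.24 CPM and Arg1, which makes ornithine from arginine, at or under 1.88 CPM in every library, and both overlapped between groups.

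The pattern of Odc1 over the 5 libraries was most like those of Ehhadh, Ptprt and Pate4, with root mean square differences of 0.075, 0.16 and 0.16 in centred log2(CPM + 0.5) among 12532 candidate genes. Pate4, which belongs to the seminal vesicle list used here, had 32580, 29317 and 6702 CPM in the deletion libraries and 27647 and 13077 CPM in the controls. Ehhadh, a peroxisomal enzyme of fatty acid oxidation, had 69.7, 53.8 and 14.4 CPM in the deletion libraries and 51.0 and 26.3 CPM in the controls. For Sat1 the nearest were Lmo2, Tmsb4x and Mgll, at 0.16, 0.26 and 0.29. Lmo2, a transcriptional adaptor of blood and vessel cells, had 35.5, 110 and 56.8 CPM in the deletion libraries and 13.0 and 47.1 CPM in the controls. With 5 libraries and so many candidates such likeness is a description of these libraries only.

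**Figure D5:**
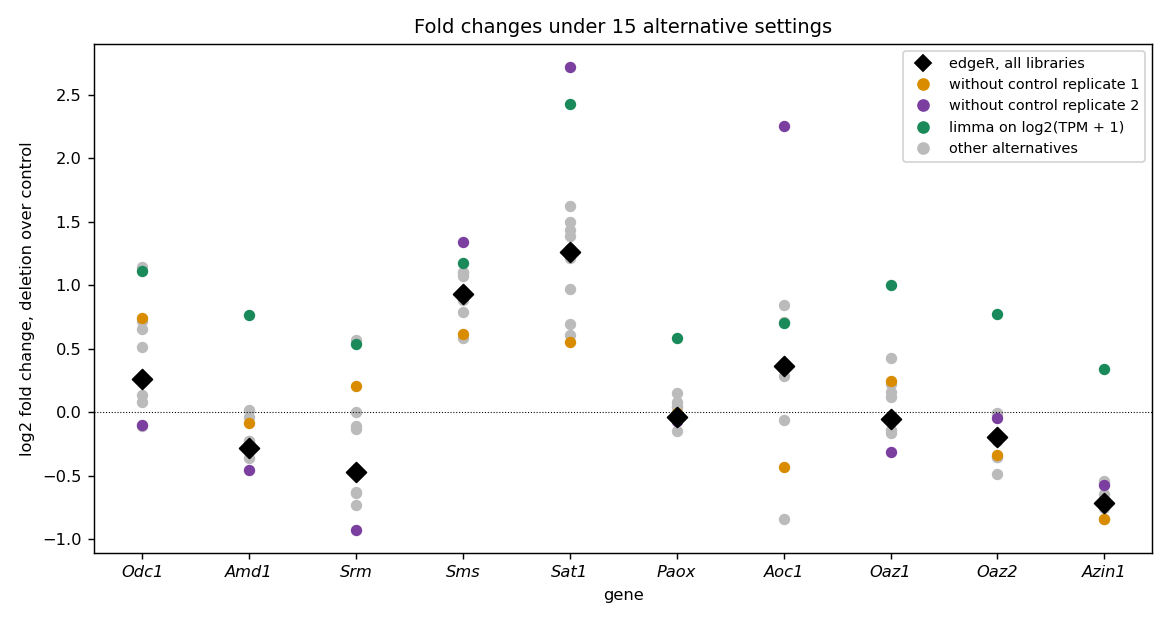
Log2 fold changes of the 10 genes, Ghr deletion over tamoxifen control, in the edgeR fit of all libraries (black diamonds) and under 15 alternative settings (points). Sms and Sat1 stay above 0 in all of them, Azin1 is below 0 in all but the log2(TPM + 1) scale, and Odc1, Srm, Paox, Aoc1 and Oaz1 cross 0 when libraries are left out.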

How the data were processed

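The labels' protocols give total RNA of flash-frozen tissue, a NucleoSpin kit and Illumina TruSeq Stranded Total RNA libraries. Tools named in the submitters' processing notes are STAR 2.5.3a, RSEM 1.3.0 and bcl2fastq 2.20.422, with build GRCm38. For the strand setting and annotation release, the sources used here give no information. Per the file headers, the authors deposited RSEM's expected counts (not normalized), TPM and transcript-weighted lengths in bases, 1 table per library. Symbols matched 99.5% of IDs, and positions came from GENCODE release M21.

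Rounded expected counts of the 5 libraries went into 1 edgeR 4.0.16 fit under R 4.3.3: filterByExpr, TMM, robust glmQLFit, glmQLFTest, group only, Benjamini-Hochberg threshold 0.05. TMM factors were 1.00, 0.843 and 1.61 in the deletion libraries and 0.491 and 1.50 in the controls. A count of 3, about the detection floor, was 0.0556 to 0.145 CPM. DESeq2 1.42.0, limma 3.58.1 and the other alternatives are reported after the results. The fit was tested on simulated counts. Ratios used a pseudocount of 0.5. Wilson intervals cover counting error only, since the sources record no molecular identifiers. Groups came from sample titles. Members, lists, ratios and tests were chosen with earlier results of these data known. Named genes were all members, Ghr, list genes with non-overlapping groups at a mean of at least 1 CPM, 5 further list genes (Smox, Amd2, Eif5a, Arg1 and Mat2a) and the 3 genes most like Odc1 and Sat1. Some marker and transport genes are also named where their values qualify a list.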

Additional observations from a re-analysis of the deposited data

How the results depend on the processing

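Of 165 gene values under the 15 alternatives (10 members and Ghr), 140 kept their direction, 25 did not, and none crossed the threshold. Of 84 ratio values, 77 kept theirs. Members passed in none of these settings. Over all genes the count was 0 in edgeR, 166 in DESeq2, 46 with library sizes alone, 11 on log2(TPM + 1), 8 with the replicate block, 85 without control replicate 1 and deletion replicate 3, and 0 to 48 when 1 library was left out (48 without control replicate 2, 2 without deletion replicate 3). The wider list had 1 call in DESeq2 and 0 to 1 when 1 library was left out. The median over the 10 genes was 0.77 on log2(TPM + 1), a scale on which the median of all genes moved to 0.54; with library sizes alone that median was 0.23. On log2(TPM + 1) Amd1 stood at 0.77, Srm 0.53, Paox 0.59, Oaz1 1.00, Oaz2 0.77, Azin1 0.34 and Ghr 0.16. With library sizes alone Amd1 stood at 0.017, Paox 0.15 and Oaz1 0.22. With the replicate number as a block Srm stood at 0.0031, Paox 0.051 and Oaz1 0.16. No label ties equal numbers. Deviations from group means correlated across genes at 0.18 for number 1 and -0.14 for number 2. With 2 controls those deviations mirror each other, so these values cannot decide whether equal numbers are paired. Without control replicate 1 and deletion replicate 3 Odc1 stood at 1.14, Srm 0.56, Paox 0.082, Aoc1 -0.84 and Oaz1 0.43. Leaving out 1 library at a time, values ran from -0.11 to 0.75 for Odc1, -0.93 to 0.20 for Srm, -0.15 to 0.042 for Paox, -0.43 to 2.25 for Aoc1, -0.31 to 0.25 for Oaz1 and -1.19 to -0.07 for Ghr. Log2 ratio differences ran from -0.14 to 0.56 for Odc1 to Oaz1, -0.29 to 1.07 for Odc1 to Oaz2, -0.58 to 0.28 for Oaz2 to Oaz1, -0.16 to 2.86 for Sat1 to Odc1, -1.23 to 0.29 for Aoc1 to Sat1, -1.09 to -0.25 for Azin1 to Oaz1, 0.64 to 1.74 for Sms to Amd1 and -0.76 to -0.46 for Srm to Odc1. In ratios of TPM the groups of Sms to Amd1 overlapped, with a difference of 0.92 (exact permutation p = 0.5). The cause of these reversals was not tested. With 2 controls, the spread between animals limits every comparison (median SE of a log2 fold change 0.529).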
